A study of Mus musculus with 8 samples.

Results

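The genes described here are the myosin heavy and light chain genes of mouse pancreatic islets. They were chosen by their symbols: every row of the count table named Myo, Myh or Myl followed by digits and an optional lower-case letter. The rule found 50 of 32531 gene symbols, and the 49 described here are 24 unconventional myosins (Myo), 14 heavy chains of the filament-forming myosins (Myh) and 11 light chains (Myl). The symbol rule uses no measured value, but the family was proposed with results of this same contrast known, in which Myo3a had one of the lowest estimates. The differences between groups below are therefore a description of these 8 libraries, and the adjusted p values are not independent support for any of them.

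Myosins are motors that bind actin filaments and use ATP to pull on them or walk along them. A myosin II molecule pairs heavy chains, which carry the motor and the tail that builds filaments, with essential and regulatory light chains, and phosphorylation of the regulatory light chain switches the non-muscle and smooth muscle forms on. Unconventional myosins do not build such filaments. They link membranes to actin, carry vesicles and organelles, or work inside actin protrusions. In β cells, myosin II and myosin V are known for their part in moving insulin granules through the cortical actin layer.

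Islet RNA was sequenced from 4 control and 4 β-tetO-NICD mice on a mixed C57BL/6J, 129X1/SvJ and BALB/c background. Both groups carried RIP-Cre, in which the rat insulin promoter drives Cre, and the Rosa26-rtTA allele, and both drank doxycycline (Dox) for 8 weeks. Only β-tetO-NICD mice also carried tetO-NICD, which expresses the intracellular domain of Notch1 when rtTA and Dox are present, so Cre, rtTA and Dox were shared by all 8 mice and no library came from mice without them. The labels give no age, and the transgene acts in cells that express insulin whereas the RNA came from whole islets. Libraries held 22430941 to 25950164 counts for controls, with a median of 22925105, and 21701223 to 26413146 counts for β-tetO-NICD mice, with a median of 23000680. Notch1, the gene that holds the transgene's sequence, had 1051 to 1562 counts in controls and 11388 to 36628 in NICD libraries. Insulin and other β cell transcripts were present in all libraries (157175 to 197769 CPM summed over 10 β cell markers in controls, 72403 to 172163 in β-tetO-NICD), where CPM is the count scaled to a common library size after TMM normalization. Acinar markers summed to 51559 CPM or more in every library, so exocrine tissue was present in both groups. The table numbers the β-tetO-NICD columns 1, 2, 4 and 5, and they are called NICD 1, 2, 4 and 5 and, together, NICD libraries here. Eif2s3y, a Y-linked gene, had at least 1300 counts in control 2, control 4 and NICD 5 and at most 1 count in the other libraries, so the libraries were not of one sex. The paper names males as the source of islets for gene expression, and this difference was not resolved here.

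Of these 49 myosin genes, 32 had at least 10 counts in at least 4 libraries and were tested. The other 17 reached at most 24 counts in any library, a value that Myo1h had in NICD 5. By edgeR's quasi-likelihood test over 15082 genes, with Benjamini-Hochberg adjusted p under 0.05 as the threshold, 6 of them passed. Myh14, Myh7, Myh7b and Myo15b were higher and Myo3a and Myo5a lower in β-tetO-NICD islets. The call of Myo3a is a description, since its value was known beforehand, and so is that of Myh7, which reached the count minimum only through the NICD libraries. The other 4 calls were 3 higher and 1 lower. Across all tested genes 6.76% passed, 4.19% higher and 2.57% lower, and since the contrast was known nothing is read from the members' share beside these. The alternative tools DESeq2 and limma-voom called 2739 and 1083 of these 15082 genes. Counts at an unadjusted p, given below for groups and lists, have no share over all genes beside them, so nothing is read from them. The groups did not overlap for 8 members (6 higher, 2 lower) and for 16.1% of all tested genes. The 14 positive and 18 negative estimates had a median of -0.11 on the log2 scale, against 0.00071 over all tested genes. Because these are whole islets, more transcript per cell and more cells of a type that expresses it cannot be told apart in any of these values.

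**Figure D1:**
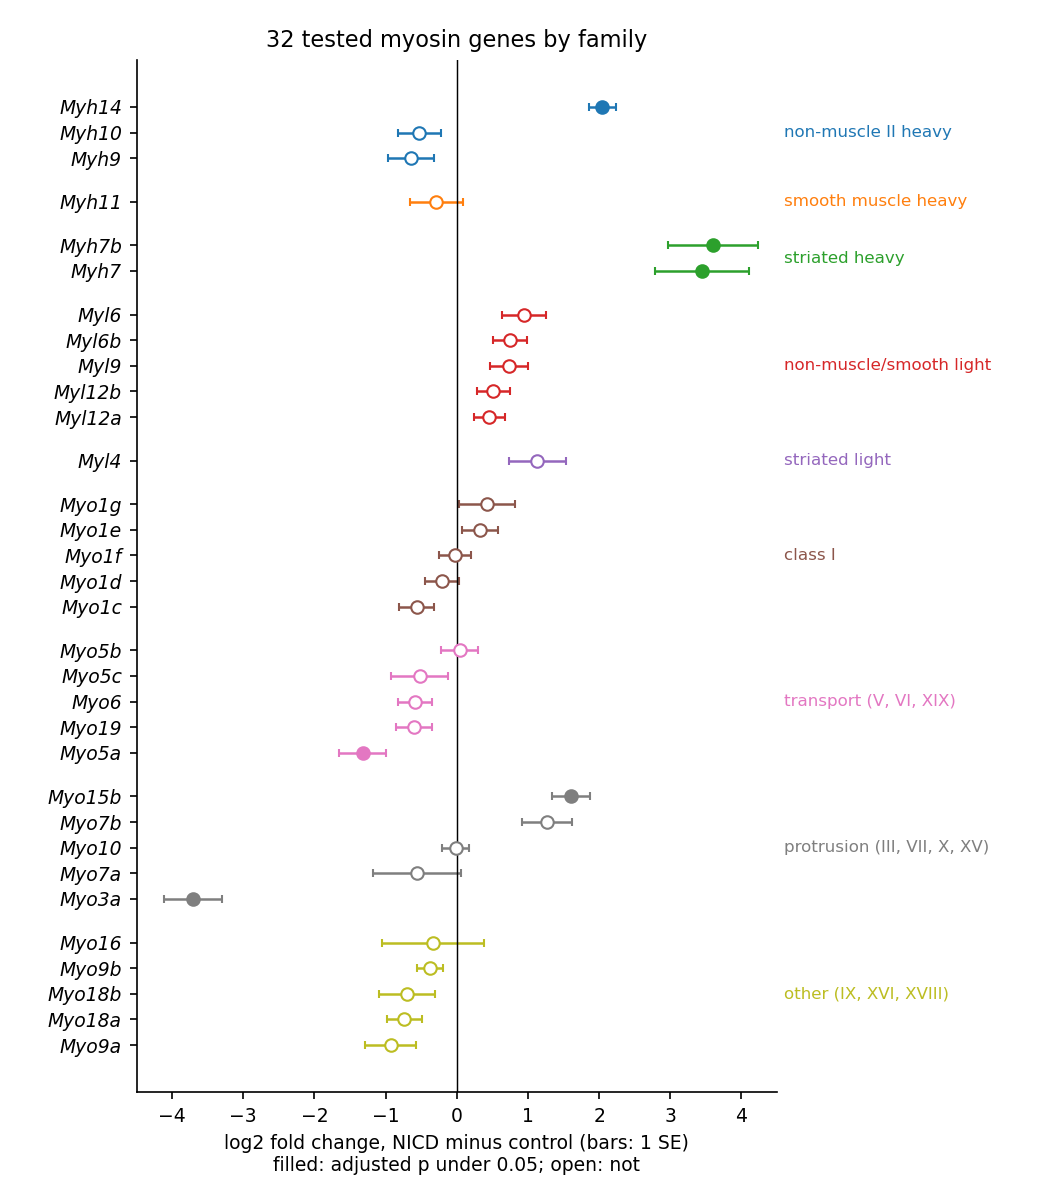
Log2 fold change (β-tetO-NICD minus control, horizontal axis) of the 32 tested myosin genes, with bars of 1 SE, grouped by family; filled points passed an adjusted p under 0.05 in edgeR's quasi-likelihood test. The 4 filled points on the right are Myh7b, Myh7, Myh14 and Myo15b, and the 2 on the left are Myo3a and Myo5a. For Myo3a and Myh7 the filling is a description and not a test.

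Myh14 encodes the heavy chain of non-muscle myosin IIC, and Myh9 and Myh10 encode those of IIA and IIB. Myh14 (chr7:44605803-44670843, minus strand, GRCm38) was at 28.2, 26.1, 25.1 and 25.5 CPM in controls 1 to 4. In NICD 1, 2, 4 and 5 it was at 73.9, 121, 134 and 104 CPM. Controls lay within a narrow band and every NICD library was above all of them, with NICD 1 the lowest. The means were 26.2 ± 1.36 and 108 ± 25.9 CPM (SD, n = 4 each), a log2 fold change of 2.05 (SE 0.19, adjusted p = 0.000338). The log2 estimate stayed between 1.94 and 2.19 when each library was left out in turn and passed the threshold in 8 of these 8 fits. An antisense gene, 2310016G11Rik, overlaps the 5′ end of Myh14 and shares 0.41% of its distinct 31-base words, and Myh14 as a whole shares 0.90% with other genes.

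The other non-muscle heavy chains had negative estimates, which turned positive with the slope of each library's length trend (its log2 deviations against log2 transcript length) as a covariate. Myh9 was at 186, 172, 108 and 177 CPM in controls and at 154, 88.2, 122 and 48.4 CPM in NICD libraries. Control 3 and NICD 1 lay inside the other group's range, and the log2 fold change of -0.64 (SE 0.32, adjusted p = 0.199) did not pass. Myh10, with a log2 fold change of -0.53 (adjusted p = 0.246), did not pass either. With the slope covariate Myh9 was at 0.096 and Myh10 at 0.14 on the log2 scale. Counts per kilobase of the longest transcript allow the 3 genes to be set side by side. Myh14 made up 11.4, 11.5, 16.3 and 11.2% of their sum in controls and 28.3, 53.8, 49.0 and 63.5% in NICD libraries. The mean share of Myh14 was thus 12.6 ± 2.48% against 48.6 ± 14.9%, that of Myh9 65.5 ± 2.79% against 37.7 ± 10.8%, and that of Myh10 21.9 ± 0.92% against 13.7 ± 4.37% (SD, n = 4 each). A share has no scaling between libraries in it, and the groups did not overlap for that of Myh14. The shares sum to the whole, so those of Myh9 and Myh10 fall where that of Myh14 rises and say nothing of their own levels. The sum itself was 57.0 ± 13.5 against 58.1 ± 20.6 per kilobase and overlapped widely.

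**Figure D2:**
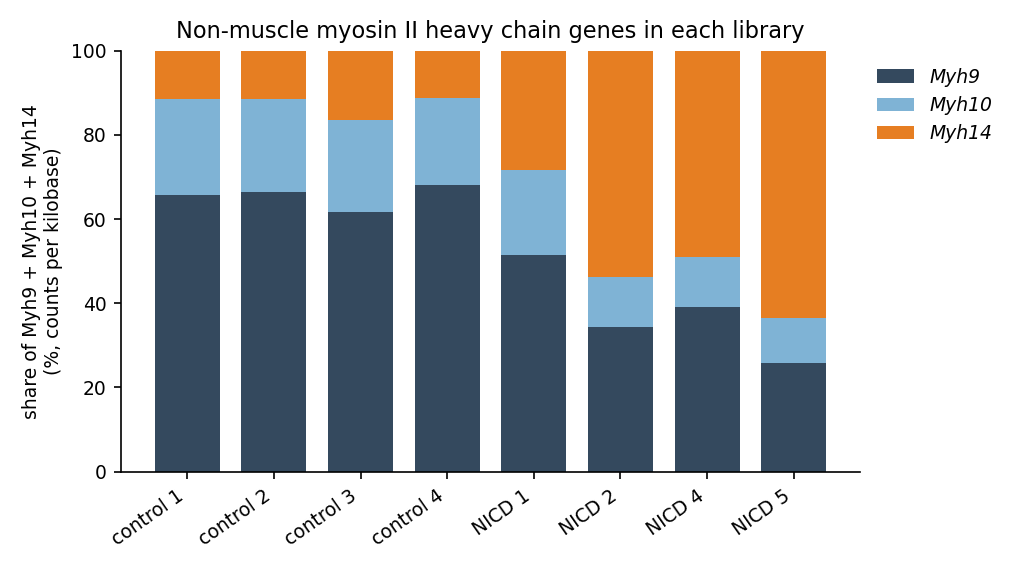
Share (%, vertical axis) of Myh9, Myh10 and Myh14 in their summed counts per kilobase of transcript, 1 bar for each control and NICD library. Myh14 takes at most 16.3% in a control library and at least 28.3% in a NICD library.

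The promoters of Myh14, the member with the smallest adjusted p among those higher, and of Myo3a, the member with the lowest estimate, are shown because NICD acts through the DNA-binding protein RBPJ, which is known to bind TGGGAA. Each runs from 250 bases before to 50 bases after the RefSeq start site (GRCm38.p6), at chr7:44670794-44671093 on the minus strand and chr2:22227253-22227552 on the plus strand. Capitals mark the 1 match to TGGGAA, which in Myh14 lies on the opposite strand to the gene and so reads TTCCCA, 170 bases upstream of the start site.
Myh14: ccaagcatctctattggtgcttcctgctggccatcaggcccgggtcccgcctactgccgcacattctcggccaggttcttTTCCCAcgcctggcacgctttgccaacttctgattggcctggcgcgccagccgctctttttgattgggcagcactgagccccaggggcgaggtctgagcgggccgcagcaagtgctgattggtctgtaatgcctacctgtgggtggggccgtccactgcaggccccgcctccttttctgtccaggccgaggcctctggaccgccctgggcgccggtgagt
Myo3a: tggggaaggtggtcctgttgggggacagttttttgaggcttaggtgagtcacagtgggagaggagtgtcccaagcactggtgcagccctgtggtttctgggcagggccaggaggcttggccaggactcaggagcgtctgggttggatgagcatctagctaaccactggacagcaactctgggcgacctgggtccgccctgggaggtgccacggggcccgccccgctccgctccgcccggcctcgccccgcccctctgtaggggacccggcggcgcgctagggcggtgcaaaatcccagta
The Myh14 match also carries the leading G of the longer form GTGGGAA. Both strands were searched for each form, and matches of the longer form are a subset of those of the shorter. Of 32851 promoters of this length 25.6% held TGGGAA and 6.38% held GTGGGAA, and among 55 promoters of 44 myosin genes 16 and 6 held them. Of the 7 promoters that RefSeq lists for the 6 members past the threshold, that of Myh14 was the only one with either form. These are matches of letters in a window of the genome, and binding of RBPJ was not measured in these libraries.

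All 5 light chain genes of non-muscle and smooth muscle myosin had positive estimates, of which Myl12a and Myl12b turned negative with the length slope as a covariate (-0.046 and -0.036), and 0 of 5 passed the threshold in edgeR (3 had an unadjusted p under 0.05, DESeq2 called 1, Myl6, and limma-voom 0). Myl6, which encodes the essential light chain, was at 163, 162, 227 and 158 CPM in controls and at 174, 360, 283 and 548 CPM in NICD libraries. NICD 1 lay below control 3, and control 3 stood well above the other controls. The log2 fold change of Myl6 was 0.94 (SE 0.31, adjusted p = 0.0894), and 0.053 with the slope covariate. Myl6b, another essential light chain, was the light chain whose groups did not overlap, at 1.06 to 1.23 CPM against 1.66 to 2.31 CPM (log2 fold change 0.75, adjusted p = 0.0853). The regulatory light chains Myl9, Myl12b and Myl12a had estimates of 0.73, 0.51 and 0.46 on the log2 scale, with adjusted p values from 0.109 to 0.173. Reads of Myl12a and Myl12b could be split between them by the counting, since 17.4% of the 31-base words of Myl12a occur in Myl12b, and 11.4% of those of Myl6 occur in other genes, most of them in the predicted gene Gm5526.

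The only striated muscle light chain tested was Myl4, the essential light chain of embryonic muscle and atrium. It had 8, 26, 13 and 17 counts in controls and 20, 38, 37 and 41 in NICD libraries, and control 2 lay above NICD 1 in CPM (1.10 against 0.95). The log2 fold change of 1.13 (SE 0.40, adjusted p = 0.104) did not pass. Myl1, Myl2, Myl3, Myl7 and Myl10 had at most 10 counts in any library.

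Of the 10 striated muscle heavy chain genes, 2 reached the count minimum, and in both every NICD library lay above every control. Myh7b, which encodes an ancient slow-type heavy chain, had 12, 31, 6 and 15 counts in controls and 66, 91, 332 and 297 counts in NICD libraries. In CPM these were 0.24 to 1.31 against 3.14 to 15.0, so the groups were apart, and NICD 4 and NICD 5 were the highest. The log2 fold change was 3.60 (SE 0.63, adjusted p = 0.0113), and it passed in 8 of 8 fits that left out a library, with estimates from 3.16 to 4.15. With the length slope as a covariate it was 2.90, with an adjusted p of 0.116. Myh7, the slow β heavy chain of heart and type I muscle fibres, had 1, 7, 1 and 4 counts in controls and 11, 57, 54 and 26 in NICD libraries. It reached the count minimum through the NICD libraries alone, so it could enter the fit only because it was higher there. Its log2 fold change of 3.44 (SE 0.66), from few counts in controls, is therefore given with no p value and supports nothing. Of its sequence, 22.6% of the 31-base words of Myh7 occur in Myh6, which had at most 6 counts in any library. The other 8 genes (Myh1, Myh2, Myh3, Myh4, Myh6, Myh8, Myh13 and Myh15) had at most 6 counts each.

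Transcripts of striated muscle fibres did not all lie near 0. Tnnt3, Tnnc2 and Mb, which encode fast troponin subunits and myoglobin, had 3 counts or fewer in every library, and Ckm, muscle creatine kinase, had 12 to 17 counts in controls and 2 to 14 in NICD libraries. Neb, which encodes nebulin of the thin filament, had 1087, 1737, 449 and 1623 counts in controls and 531, 278, 383 and 109 in NICD libraries, with control 3 below NICD 1. It was at 51.8 ± 24.7 CPM in controls and 13.9 ± 8.24 CPM in NICD libraries (SD, n = 4 each, log2 fold change -1.90, adjusted p = 0.0521). With an offset that takes out each library's trend with transcript length (the length offset) the log2 fold change was -0.98, with an adjusted p of 0.0376. Tnnc1, the troponin C of slow and cardiac muscle, had an estimate of 1.41 on the log2 scale (adjusted p = 0.114). Of the 15 striated muscle markers 5 were tested and 0 passed in edgeR (3 at an unadjusted p under 0.05, 2 in DESeq2, 0 in limma-voom). The summed level of the 15 was 23.5 to 79.1 CPM in controls and 19.3 to 30.0 CPM in NICD libraries, and in controls most of these counts were those of Neb, a long transcript. Their part in the values of Myh7b and Myh7 was not tested.

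Both heavy chain genes hold a microRNA gene on their own strand, and the mature forms are shown because they share bases 2 to 7. miR-499-5p lies in intron 19 of the 42-exon transcript of Myh7b (chr2:155622893-155622913, plus strand) and miR-208b-3p in intron 31 of the 41-exon transcript of Myh7 (chr14:54975710-54975731, minus strand). Capitals mark the seed, bases 2 to 8 from the 5′ end, and the sequences are those of RefSeq (GRCm38.p6).
miR-499-5p: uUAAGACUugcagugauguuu
miR-208b-3p: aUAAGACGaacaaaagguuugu
miR-208a-3p: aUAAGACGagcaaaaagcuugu
The last lies in intron 29 of Myh6. Bases 2 to 7 are UAAGAC in all 3, and base 8 is the one seed base in which miR-499-5p differs from the others. MicroRNAs were not measured in these poly(A) libraries, so the values for Myh7b and Myh7 are those of the host transcripts only.

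Myh11, the heavy chain of smooth muscle, had 341, 492, 150 and 356 counts in controls and 387, 229, 318 and 153 counts in NICD libraries. In CPM these were 5.94 to 20.8 against 7.71 to 18.4, so the groups overlapped, with control 3 the lowest of the 8 libraries. The log2 fold change was -0.29 (SE 0.37, adjusted p = 0.608), and the estimate was positive, at 0.046, with the length offset. Of 15 smooth muscle and pericyte markers 13 were tested and 0 passed in edgeR (3 at an unadjusted p under 0.05, 2 in DESeq2, 0 in limma-voom), with sums of 194 to 321 CPM in controls and 227 to 285 CPM in NICD libraries. Among them Cnn1, calponin 1 of mature smooth muscle, had at most 5 counts in any library.

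Class I myosins are single-headed motors that tether membranes to actin, and 0 of 5 passed the threshold in edgeR (1 had an unadjusted p under 0.05, and DESeq2 and limma-voom called 0). The most abundant class I gene per kilobase over the 8 libraries was Myo1c, which is known for tethering transport vesicles at the plasma membrane. It was at 82.5, 83.1, 56.8 and 73.4 CPM in controls and at 66.0, 47.5, 58.0 and 28.6 CPM in NICD libraries. Control 3 lay within the β-tetO-NICD range, and the log2 fold change of -0.56 (SE 0.25, adjusted p = 0.153) did not pass. Myo1d, Myo1e, Myo1f and Myo1g had log2 estimates from -0.21 to 0.42 and did not pass, and Myo1a and Myo1h were under the minimum. Myo1d and Myo1f, at -0.21 and -0.02, were at 0.20 and 0.092 with the length slope as a covariate.

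Myo1f and Myo1g are known as the class I myosins of blood cells. Myo1f was at 2.37 to 2.65 CPM in controls and 2.01 to 2.95 CPM in NICD libraries (log2 fold change -0.02, adjusted p = 0.962). Myo1g was at 0.63 to 1.56 CPM in controls and 0.65 to 1.57 CPM in NICD libraries (log2 fold change 0.42, adjusted p = 0.460). Of the 14 tested leukocyte and macrophage markers 4 passed, all higher (Cd14, Cd74, Coro1a and Cd52), and 1 to 8 passed when a library was left out, 8 without NICD 1, 2 without control 4, and 1 without control 1 or 2 or without NICD 2, 4 or 5. Over all tested genes 6.76% passed, and 33.2% without NICD 1. Itgam and Adgre1, which mark myeloid cells and macrophages, had estimates of -1.16 and -0.38 on the log2 scale and did not pass. The marker sum was 184 to 284 CPM in controls and 367 to 620 CPM in NICD libraries, of which Cd74 alone was 121 ± 40.7 and 321 ± 92.1 CPM (SD, n = 4 each). Ptprc, which defines leukocytes as CD45, had an estimate of 0.32 on the log2 scale and an adjusted p of 0.269, and with the length offset 0.59 and an adjusted p of 0.0451.

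Among the vesicle and organelle transport myosins, Myo5a alone passed. Myosin Va carries secretory granules and melanosomes along actin. Myo5a (chr9:75071015-75223688, plus strand) was at 117, 127.5, 65.2 and 146 CPM in controls and at 76.4, 35.1, 38.9 and 32.0 CPM in NICD libraries. The groups overlapped in 1 pair, since control 3 was below NICD 1. The log2 fold change of -1.32 (SE 0.33, adjusted p = 0.0429) passed narrowly. Without one library at a time it lay between -1.69 and -1.18 and passed in 2 of 8 fits, those without control 3 and without NICD 1. With the length offset it was -0.74 (adjusted p = 0.00305), with the length slope as a covariate -0.55 (adjusted p = 0.128), and with a covariate for Eif2s3y, which was present in 2 controls and 1 NICD library, -1.28 (adjusted p = 0.0858).

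Myo6, the motor that walks towards the pointed end of actin and serves endocytosis, was the most abundant of this group per kilobase. It was at 186, 188, 131 and 215.5 CPM in controls and at 175.5, 101, 115.5 and 88.2 CPM in NICD libraries. NICD 1 lay above control 3, and the log2 fold change of -0.59 (SE 0.24, adjusted p = 0.136) did not pass. Myo19, the mitochondrial myosin, was lower without overlap (3.72 to 4.99 CPM against 1.81 to 3.42 CPM) but its estimate of -0.60 on the log2 scale did not pass (adjusted p = 0.142). Myo5b and Myo5c had estimates of 0.04 and -0.52 on the log2 scale and did not pass. Myo5c was at 0.13 with the length slope as a covariate, and Myo5b at -0.19 without NICD 1.

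Proteins that couple myosins V, VI and VII to their cargo were taken from a list of 30 genes. Of 29 tested, 2 passed as higher and 4 as lower, where 4.19% and 2.57% of all tested genes did, and the list's median log2 fold change was -0.40, against 0.00071 over all tested genes. Sytl4, which encodes the granule protein granuphilin, was at 297 ± 51.7 CPM in controls and 102 ± 16.6 CPM in NICD libraries (log2 fold change -1.54, adjusted p = 0.0017). Rph3a, for the Rab3 and Rab27 effector rabphilin, was at 26.41 ± 20.7 against 2.03 ± 0.57 CPM (log2 fold change -3.69, adjusted p = 0.00348). Optn, for the myosin VI adaptor optineurin, was lower by an estimate of -0.81 on the log2 scale (adjusted p = 0.0231). Rab27b, a Rab GTPase of secretory granules, was higher, at 8.81 ± 3.18 CPM in NICD libraries against 3.79 ± 0.63 CPM in controls (SD, n = 4 each, log2 fold change 1.22, adjusted p = 0.0289). The number of these genes past the threshold was between 2 and 14 when a library was left out, 14 being the value without NICD 1. In the fit without NICD 1, 33.2% of all tested genes passed.

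Myosins of actin protrusions held the lowest estimate of the family. Myo3a (chr2:22227503-22618252, plus strand) encodes a class III myosin with a kinase domain, known from the tips of stereocilia in hair cells. It had 329, 446, 781 and 1307 counts in controls and 56, 53, 74 and 31 counts in NICD libraries. In CPM these were 15.2, 18.8, 30.9 and 53.1 against 2.66, 2.31, 2.46 and 1.56. Controls differed among themselves more than NICD libraries did, and the lowest control was far above the highest NICD library. The means were 29.5 ± 17.1 and 2.25 ± 0.48 CPM (SD, n = 4 each), a log2 fold change of -3.71 (SE 0.41), which is given without its p value, and as a description, because it was known when the family was proposed. It lay between -3.91 and -3.26 without one library at a time and was -3.49 with the length offset. None of the 31-base words of Myo3a occurs in another gene, and Myo3b, its paralogue, had at most 4 counts in any library. Gad2, the next gene downstream on the same strand and coding for a glutamate decarboxylase, was at 0.89 to 4.95 CPM in controls and 0.33 to 1.05 CPM in NICD libraries, with a log2 fold change of -2.10 that did not pass (adjusted p = 0.0677).

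Myo15b (chr11:115858406-115892603, plus strand) belongs to the class XV myosins, whose best known member also works in stereocilia. It was at 23.0, 22.3, 11.8 and 12.8 CPM in controls and at 47.6, 68.0, 57.4 and 39.9 CPM in NICD libraries. Every NICD library was above every control, and controls 3 and 4 were the lowest. The means of 17.5 ± 5.99 and 53.2 ± 12.2 CPM (SD, n = 4 each) gave a log2 fold change of 1.61 (SE 0.27, adjusted p = 0.00835), which passed in 8 of 8 fits without a library at 1.46 to 1.78 and was 2.19 with the length offset. None of its 31-base words occurs in another gene. Smim5, which lies downstream on the same strand, was at 0.88 to 1.31 CPM in controls and 2.47 to 3.28 CPM in NICD libraries (log2 fold change 1.47, adjusted p = 0.00949).

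Myo7b, the microvillus myosin of intestine and kidney, was at 1.11, 0.68, 1.27 and 1.75 CPM in controls and at 3.33, 2.23, 3.95 and 2.07 CPM in NICD libraries. The groups were apart, but the log2 fold change of 1.27 (SE 0.35, adjusted p = 0.0594) did not pass. It passed in DESeq2, with upper-quartile scaling and with the length offset, where it was 1.59. It did not pass in limma-voom (adjusted p = 0.0532). In edgeR it did not pass with the length slope (adjusted p = 0.0923) or Eif2s3y (adjusted p = 0.101) as a covariate. Of 8 fits that left out a library it passed in 1, that without NICD 1. Myo10, which carries cargo to the tips of filopodia, was at 65.7, 59.2, 42.6 and 67.9 CPM in controls and at 70.2, 47.5, 57.0 and 57.9 CPM in NICD libraries. These groups overlapped, with a log2 fold change of -0.02 (SE 0.18, adjusted p = 0.956). Myo7a, the motor of the Usher protein complex, had an estimate of -0.56 on the log2 scale (adjusted p = 0.540), and 0.25 with the length slope as a covariate. Myo3b and Myo15 were under the minimum.

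The remaining unconventional myosins are Myo9a and Myo9b, whose tails hold a domain that turns off small GTPases, and Myo16, Myo18a and Myo18b. All 5 had negative estimates, from -0.93 to -0.34 on the log2 scale, and Myo9b turned positive with the length offset (0.032) and Myo16 and Myo18b with the slope covariate (0.98 and 0.0087). Of all tested genes in the length range of heavy chains and unconventional myosins (3831 to 12252 bases) 71.6% had negative estimates. In this group 0 of 5 passed in edgeR (2 at an unadjusted p under 0.05, 1 in DESeq2, 0 in limma-voom). Myo18a, known from the Golgi membrane, was the most abundant per kilobase, at 149, 117, 108 and 132 CPM in controls and at 112, 68.6, 78.0 and 45.2 CPM in NICD libraries. NICD 1 lay above control 3, and the log2 fold change was -0.74 (SE 0.25, adjusted p = 0.0947).

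**Figure D3:**
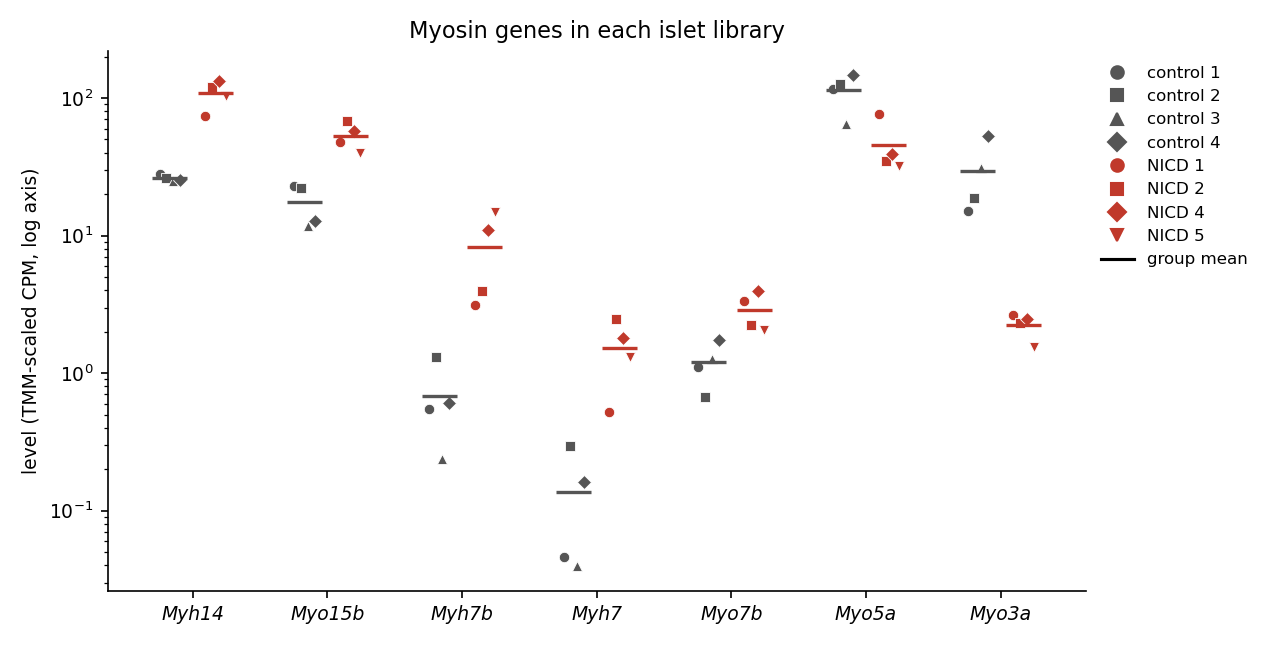
Level (TMM-scaled CPM, log axis) of 7 myosin genes in each of the 4 control (grey) and 4 β-tetO-NICD (red) libraries, with group means as horizontal lines: the 6 past the threshold and Myo7b, which had an adjusted p of 0.0594. Only for Myo5a do the groups overlap, with control 3 below NICD 1.

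Transcript length moved with these values. Over 14655 tested genes, each library's deviation from the 8-library mean was correlated with transcript length, and Spearman's correlation was 0.42, 0.47, -0.17 and 0.50 in controls 1 to 4 and 0.45, -0.52, -0.36 and -0.51 in NICD 1, 2, 4 and 5, described here across genes, which are not independent replicates. Long transcripts were thus relatively high in controls 1, 2 and 4 and in NICD 1, and low in control 3 and in the other NICD libraries. Light chain transcripts are short and heavy chain transcripts long. The 6 tested light chains had a median log2 fold change of 0.74, against 0.21 for the 6035 tested genes within their range of transcript length (1128 to 3273 bases). With the length offset these medians were 0.31 and -0.0074, and 6 of 6 estimates remained positive, whereas with the slope covariate 2 of them (Myl12a and Myl12b) were negative. These lengths are of the longest transcript, 3040 bases for Myl6 and 3273 for Myl4, whose coding lengths are 474 and 579 bases. With an offset from coding length, chosen after seeing the data, the medians were 0.38 and 0.078. Myl6 was at 0.89 with the first offset and 0.51 with the coding offset, and Myl4 at 1.14 and 0.77. The 26 tested heavy chains and unconventional myosins had a median of -0.36, against -0.26 for the 5833 tested genes between 3831 and 12252 bases, and with the offset -0.036 against -0.015. How much of any single gene's difference comes with length was not tested.

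With the length offset 7 members passed, the same 6 and Myo7b, and 10.6% of all tested genes did. With the slope covariate 22 of the 32 estimates were positive and 10 negative, and 3 members passed. Without NICD 1, the NICD library whose length trend is like that of most controls, 18 of 31 tested members passed (10 higher, 8 lower), and 33.2% of all tested genes. The 10 then higher include all 6 light chains tested, and the 8 then lower include Myh9, Myh10, Myo6, Myo9a, Myo18a and Myo1c. Fits within the 4 libraries of positive trend and within the 4 of negative trend each called 1 member, and each has 1 group made of a single library, which is assumed to vary like the others.

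**Figure D4:**
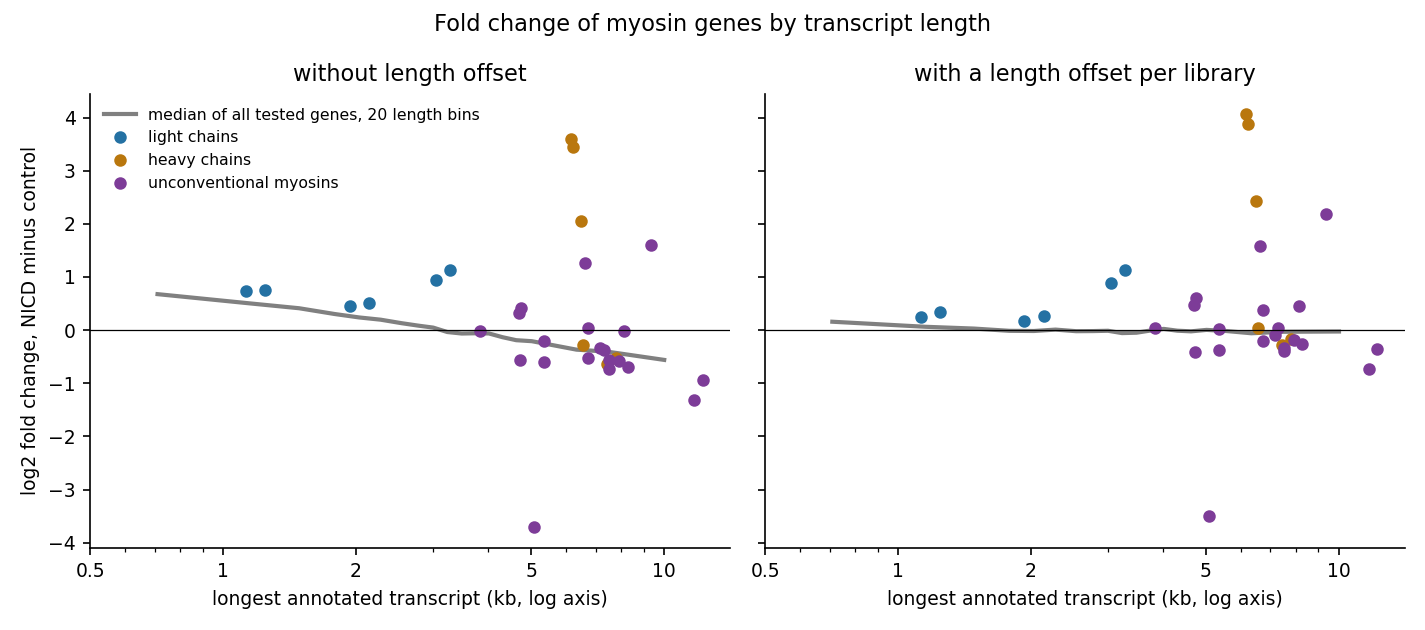
Log2 fold change (vertical axis) of the 32 tested myosin genes against the length of the longest annotated transcript (kilobases, log axis), without (left) and with (right) a length offset for each library; the grey line is the median of all tested genes in 20 bins of length. On the left the grey line falls with length and the blue light chains lie above 0. On the right the line is nearly flat.

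**Figure D5:**
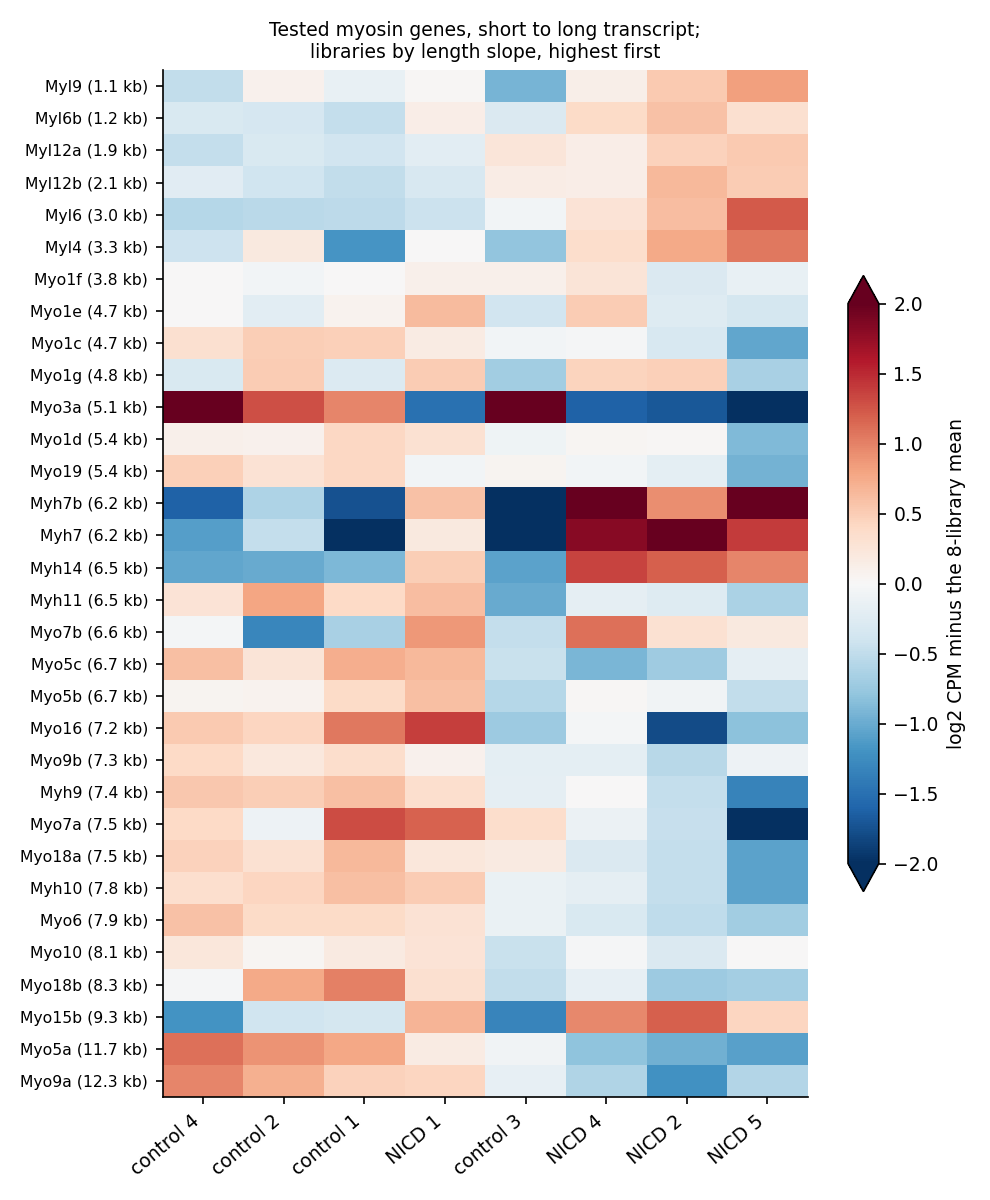
Deviation of log2 CPM from the 8-library mean (colour, limited to 2 either way) for the 32 tested myosin genes, ordered from the shortest to the longest transcript, in the 8 libraries ordered by the slope of their length trend. NICD 1 and control 3 sit between the other libraries of the groups. Myo3a is high in the 4 controls and low in the 4 NICD libraries, and Myh14 the reverse.

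Levels were compared between genes only as counts per kilobase of the longest transcript, rescaled to the same total in each library. In controls the light chains led, with Myl6 at 99.6 ± 11.7, Myl12b at 77.4 ± 12.5 and Myl12a at 42.9 ± 7.35 (SD, n = 4 each). Myo6 at 39.5 ± 10.3 and Myh9 at 37.6 ± 9.996 followed, and these and Myl12a do not differ beyond their spread. In NICD libraries the same 3 light chains led in the same order, at 172 ± 57.6, 101 ± 23.0 and 54.2 ± 9.001. Myh14 stood 15th of 32 in controls (6.94 ± 0.62) and 4th in NICD libraries (26.8 ± 9.37), a level within the spread of Myo6 and Myh9 there. Myo3a went from 13th (10.1 ± 6.39) to 26th (0.72 ± 0.24), Myo5a from 9th (17.0 ± 6.19) to 16th (6.32 ± 3.24), and Myh7b from 30th (0.19 ± 0.14) to 21st (2.10 ± 1.39). The order depends on the transcript chosen: Myl6 was divided by a longest transcript of 3040 bases, and per kilobase of coding sequence its level in controls was 282.5. By coding length Myh14 stood 16th in controls and 7th in NICD libraries. Summed over these 49 members, myosin transcripts made up 1374 ± 130 CPM in controls and 1390 ± 21.2 CPM in NICD libraries.

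Kinases and phosphatase subunits that switch myosin II were listed apart from the myosins. Of 11 tested genes of light chain kinases and phosphatase, 0 passed in edgeR (6 at an unadjusted p under 0.05, 3 in DESeq2, 0 in limma-voom), and the median log2 fold change was -0.41. By DESeq2 2739 of all 15082 tested genes passed. Cit, which encodes citron kinase of the cleavage furrow, had the smallest adjusted p (0.0745, log2 fold change 1.26). Rock1 and Rock2, coiled-coil kinases that promote light chain phosphorylation, had estimates of -0.69 (adjusted p = 0.102) and -0.67 (adjusted p = 0.083).

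Of 19 actins, tropomyosins and crosslinkers 0 passed in edgeR (4 at an unadjusted p under 0.05, 3 in DESeq2, 0 in limma-voom). The smallest adjusted p there was 0.0694, for Ezr, which encodes ezrin, a linker of actin to the plasma membrane (log2 fold change -0.53). Of 10 calmodulins and myosin chaperones 0 passed in edgeR (2 at an unadjusted p under 0.05, 1 in DESeq2, 0 in limma-voom), with Calml4, a light chain known from brush border and hair cell myosin VII, at 0.57 ± 0.07 CPM in controls and 2.21 ± 1.61 CPM in NICD libraries (log2 fold change 1.95, adjusted p = 0.0598). These lists also shifted with the library left out: without NICD 1 the counts past the threshold were 7 light chain kinases and phosphatase genes, 4 actin genes and 3 calmodulins and chaperones. In that fit 33.2% of all tested genes passed.

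Marker counts of other cell types are set beside the 6.76% of all tested genes that passed. Of 8 α cell markers 5 passed, all higher, and their sum was 14995 to 44714 CPM in controls and 57105 to 71237 CPM in NICD libraries, of which glucagon (Gcg) made up most. Of 10 β cell markers 3 passed, all lower (G6pc2, Ucn3 and Slc2a2), and with the length offset 6 passed as lower, with Iapp, Ins1 and Ins2 added at -1.10, -1.13 and -1.09 on the log2 scale (adjusted p = 0.0107, 0.0156 and 0.0222). Of 6 δ and PP cell markers 1 passed, Hhex, which was higher, and of 8 Schwann cell and neuron markers 1 passed, Th, which was lower. In edgeR 0 markers passed of 10 for endothelial cells, 10 for fibroblasts and stellate cells, 10 for duct cells, 14 for acinar cells and 5 for erythrocytes. At an unadjusted p under 0.05 these were 4, 0, 4, 1 and 0, in DESeq2 1, 0, 4, 1 and 0, and in limma-voom 0 of each. DESeq2 called 2739 of all 15082 tested genes. Without one library at a time the α cell count lay between 1 (without control 2, control 4 or NICD 2) and 6 (without control 3 or NICD 1), and was 2 without control 1 or NICD 5. The β cell count lay between 1 (without control 1, control 4, NICD 2 or NICD 4) and 4 (without NICD 1), and that of δ and PP cells was 3 without control 3 or NICD 1 and 0 without any of the other libraries. Without NICD 1, 4 endothelial, 3 duct, 3 smooth muscle, 2 striated muscle and 2 Schwann cell or neuron markers passed, and without control 2, 2 fibroblast or stellate cell markers did. Over all tested genes 33.2% passed without NICD 1, and 503 of 14926 without control 2. Their part in the differences between the myosin genes was not tested.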

How the data were processed

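Islet RNA of 4 control and 4 β-tetO-NICD mice was prepared by the authors as stranded poly(A) libraries (TruSeq), and reads were pseudoaligned to the GRCm38 transcriptome with Kallisto. The Kallisto version, the annotation release and how estimates were rounded are not given in the sources used here. The deposited table holds whole-number counts per gene symbol, not normalized, with 0 value columns that could not be assigned. The columns numbered 4 and 5 were assigned to the β-tetO-NICD group only. A second deposited table holds the authors' own comparison (log2 fold changes and p values) and was not used.

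The tests used edgeR 4.0.16 in R 4.3.3. A gene entered them if 4 or more of the 8 libraries gave it 10 counts or more. Libraries were scaled by TMM and groups compared by the quasi-likelihood test without covariates, with Benjamini-Hochberg adjustment over all tested genes and a threshold of 0.05. Where the authors used limma, limma-voom (limma 3.58.1) and DESeq2 1.42.0 were alternatives. Fits were first tested on simulated data. CPM in the text are TMM-scaled. Lengths and coordinates are those of GENCODE M21, which matched 97.2% of tested genes, and the length offset takes out a smooth trend of each library's log2 deviation with length (lowess span 0.3). Promoters and microRNAs are those of RefSeq (GRCm38.p6). Shared sequence was counted as distinct 31-base words of annotated transcripts.

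Members and lists were chosen with earlier results of these data known. Named were members past the threshold, the most abundant tested member of each family group, tested members with an absolute log2 fold change of at least 1, and up to 4 genes with the smallest adjusted p of each related list. The values of 1 member and 1 related list are not reported here. Libraries of the same group differed by at least 31.5 in chi-square per gene, so none were merged. Each library is labelled as 1 mouse. Totals of at least 21701223 counts place members at a few CPM well above 3 counts, and precision there is set by differences between mice. Other settings, a replicate block and leaving out each library were tried.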

Additional observations from a re-analysis of the deposited data

Results flagged for a closer look

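In 30 groups of 4 libraries (15 named myosin genes in each group), 2 had a library whose distance to its nearest neighbour relative to the group's range was above Dixon's 95% limit for 4 values. Chance flags about 1 group in 20. Myl6 in controls was one, with control 3 at 227 CPM against 158 to 163 CPM in the others, a gap of 0.927 of the range. Myo5a in β-tetO-NICD libraries was the other, with NICD 1 at 76.4 CPM against 32.0 to 38.9 CPM in the others, a gap of 0.844 of the range. Both are the library of their group whose length trend has the sign of most of the other group (Spearman's correlation -0.17 in control 3 and 0.45 in NICD 1), and the part of that trend was not tested.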

How the results depend on the processing

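Against 6 members past the threshold (4 higher, 2 lower), DESeq2 gave 9 and the length offset 7, where 1020, 2739 and 1601 of 15082 genes passed in these 3 fits. The length slope as a covariate gave 3 (2 higher, 1 lower) and a covariate for Eif2s3y 5, of which 1 was lower, with 454 and 741 genes passing in all. Leaving out one library gave 4 to 18 (3 to 10 higher, 1 to 8 lower), 18 without NICD 1 (4954 of 14902 genes) and 1 lower without control 1, 2 or 4 or NICD 2, 4 or 5. Alternatives chosen after seeing the data were the fits within one sign of the length trend, the 4 libraries of the replicate block fit without the block, leaving out libraries for the related lists, an offset from coding length (9, 7 of them higher) and the sign of the length trend as a covariate (4, 2 of them higher). Replicate numbers 1 and 2 were shared by both groups, and the correlation of deviations was 0.28 for number 1 and -0.09 for number 2. These 2 values cannot settle whether mice of the same number were paired. A fit with the replicate number as a block gave the same 6 members, and the same 4 libraries without the block gave 1 (0 higher, 1 lower). Myo10 was -0.02 in the fit reported and positive with upper-quartile factors (0.0599), 10 counts in every library (0.011), the length offset (0.45), the coding length offset (0.53), the slope covariate (0.31), the Eif2s3y covariate (0.0200), the trend sign covariate (0.24) and within libraries of positive (0.13) or negative trend (0.35), and lay between -0.14 and 0.0728 without one library. Myh11 was positive with the offset (0.046), coding length offset (0.22), slope (0.58) and sign covariates (0.38) and within positive (0.11) and negative trends (0.68). With the slope covariate Myh9 was 0.096, Myh10 0.14, Myl12a -0.046 and Myl12b -0.036. DESeq2 gave 3 light chain kinase and phosphatase genes, 3 actin genes and 1 calmodulin or chaperone gene, and the length offset 1 kinase or phosphatase gene and 1 actin gene. Without one library these lists gave 0 to 7, 0 to 4 and 0 to 3, and cargo adaptors 2 to 14. The causes were not tested. Myh7 has few counts in controls, and its size is not well set by this depth.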
